A study of Mus musculus with 6 samples.

Results

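The iron and selenium handling genes described here are Tfrc, Slc11a2, Aco1, Ireb2, Fth1, Sephs2, Selt and Txnrd1. They were taken by gene symbol from the deposited table, and all 8 were found among its 10896 genes. Medium for follicle culture holds transferrin, which carries iron into cells, and selenium, and both elements enter the pathways of these genes. The study measured RNA of mouse oocytes still arrested with an intact germinal vesicle in 6 samples of 50 oocytes each.

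Both groups came from (C57BL x CBA) F1 females. For the in vitro group, follicles from the ovaries of females aged 10 to 12 days, 2 to 5 animals according to the labels, were freed with collagenase. They then grew on membrane inserts in MEM-alpha with 5% serum, insulin, transferrin, selenium, penicillin, streptomycin and 0.01 µg/ml follicle stimulating hormone. For the in vivo group, oocytes were released with a needle from ovaries of adult females aged 7 to 11 weeks, into M2 medium with dbcAMP. Each group held 3 samples, and each sample gave 10 ng of RNA for cDNA synthesis. Culture and age of the donor cannot be told apart in any comparison below. Whether samples within a group shared animals or culture dishes is not stated, so p-values measure only the spread between samples, which may be technical. In such bulk samples, fewer cells of a type and less RNA per cell cannot be told apart either.

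Iron bound to transferrin enters cells through the transferrin receptor and is released from endosomes by a metal transporter. Spare iron is stored in ferritin. The iron regulatory proteins, encoded by Aco1 and Ireb2, sense iron and bind hairpins called iron responsive elements in mRNAs. Bound near the start of an mRNA, as in ferritin, they block translation, and bound behind the coding part, as in the receptor's mRNA, they protect it from decay. Selenium is built into proteins as selenocysteine, which is encoded by the codon TGA, otherwise a stop signal, and selenoproteins include enzymes that reduce thioredoxin and lipid peroxides.

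The sequences through which these genes are tied to iron and selenium are shown first. They were read from GENCODE M21 transcripts of build GRCm38, in which all 8 genes were found (Selt under the name Selenot), and chromosomes are of that build. Iron responsive elements were searched in the untranslated regions, on the strand of the mRNA, as a C, any 5 bases, CAGTG and any 6 bases, with 5 of 5 base pairs, G with T included, between the 5 bases on either side of the loop. Of 21864 protein coding genes outside the mitochondrial genome, 160 (0.732%) held such a match. Among the 8 genes, Tfrc on chromosome 16 held 4 in its 3′ untranslated region, between bases 3321 and 3828 of the transcript. Fth1 on chromosome 19 held 1 in its 5′ untranslated region, starting at base 93. In the lines below the capitals mark the unpaired C, whose base number is given, and the CAGTG that opens the loop. The strict pattern was not found in the other 6 genes, which says only that their annotated untranslated regions hold no match with all 5 pairs. The letters alone, whatever the pairs, were in 8985 of the 21864 genes (41.1%). Matches with fewer pairs were not listed, so elements with an imperfect stem may be present in these 6 genes. For the same reason, Tfrc and Fth1 may hold more elements than those shown.

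Fth1, base 93: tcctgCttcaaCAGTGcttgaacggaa

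Tfrc, base 3321: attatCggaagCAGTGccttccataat

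Tfrc, base 3700: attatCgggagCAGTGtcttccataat

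Tfrc, base 3765: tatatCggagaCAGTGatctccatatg

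Tfrc, base 3812: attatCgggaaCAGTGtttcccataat

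TGA codons in frame before the stop codon were searched, and 27 of the 21864 genes (0.123%) held one. Most are selenoprotein genes, but Sgk1, Shf and Sun1 are not known as such, so an in-frame TGA in the annotation is not always a selenocysteine codon. Sephs2 (chromosome 7), Selt (chromosome 3) and Txnrd1 (chromosome 10) were among them. The codon was number 63 of 452 in Sephs2, number 49 of 195 in Selt and number 612 of 613 in Txnrd1, in the longest transcript that held it. Capitals mark the TGA in the reading frame.

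Sephs2, codon 63: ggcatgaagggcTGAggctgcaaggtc

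Selt, codon 49: atttgtgtatccTGAgggtaccggcgg

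Txnrd1, codon 612: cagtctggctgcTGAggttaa

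The deposited table gives the mean of normalised reads per gene and group, which is not scaled by gene length. It also gives a PPEE, read here, from the usual meaning of the term, as the posterior probability of equal expression. A gene was called by the table at a PPEE below 0.05. Levels of single libraries were recovered from the means as whole reads, for all 8 genes and for 9041 genes in all, and were tested with limma voom at a Benjamini-Hochberg adjusted p below 0.05. The libraries are named A, B and C within each group by falling size factor, since the table does not link them to the labels' replicate numbers. Over the 9041 genes they held between 1391742 and 2106182 reads, which have no molecular identifiers. Recovery is least secure for means between 500 and 1000, which include both means of Slc11a2, Ireb2 and Fth1 and the in vivo mean of Aco1.

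All 12 oocyte markers looked for, such as Zp3 and Gdf9, were measured, with Bmp15 and Kit called lower in vitro, while none of 9 red blood cell markers, haemoglobins included, had a row in the table. Of 12 granulosa and cumulus cell markers 7 were measured, of which Inha and Fshr were called higher in vitro by the table and none lower. Their summed level ran from 349 to 468 normalised reads in the in vitro libraries and from 273 to 289 in the in vivo libraries. The part of these follicle cells in the results below was not tested. The markers Amh, Foxl2, Inhbb, Amhr2 and Has2 had no row in the table. Of other cell types, 1 of 8 theca and stroma markers, 1 of 6 leukocyte markers and 3 of 4 endothelial markers were measured, and the endothelial Pecam1 and Tek were called lower in vitro. The endothelial sum ran from 548 to 756 normalised reads in vitro and from 881 to 1091 in vivo, and its part in the results was not tested either. Most of that sum was Pecam1, at a mean of 561 in vitro and 849 in vivo, while Cdh5 had no row.

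The called genes among the 8 went in both directions. By the authors' deposited table Sephs2 was called higher in vitro, Slc11a2 and Aco1 were called lower, and 5 genes were not called, where 15.1% of all genes were called. Limma voom called these 3 genes in the same directions and in addition Ireb2 and Selt, both higher, so that 5 of the 8 genes passed where 11.5% of genes with recovered reads did. The in vitro and in vivo libraries did not overlap for 7 of the 8 genes, as for 35.1% of genes with recovered reads. Since the genes were chosen with earlier results of these data known, these counts are descriptions.

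**Figure D1:**
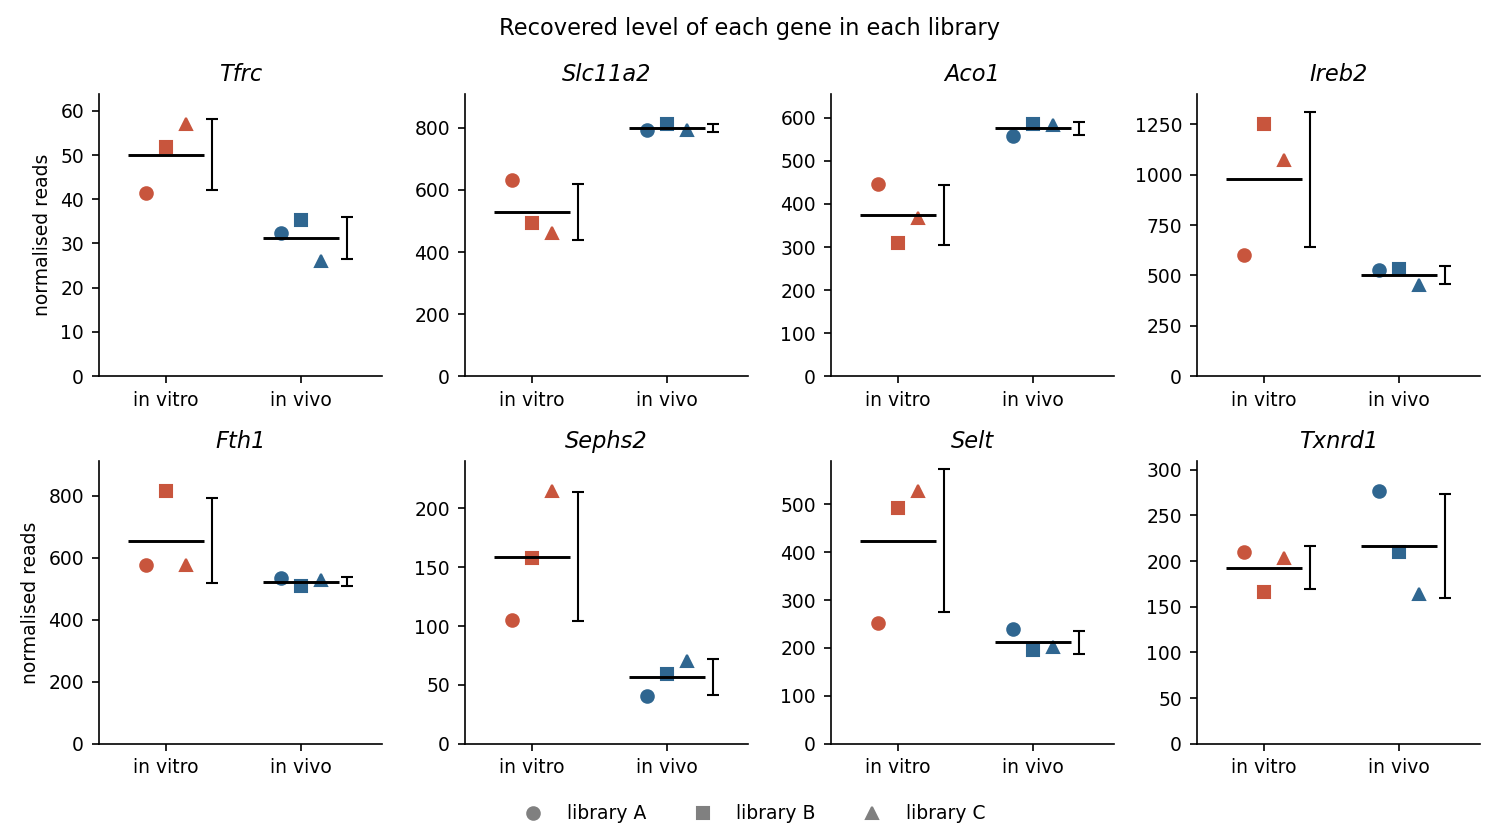
Level of each of the 8 genes (normalised reads, linear axes from 0, scale differing between panels) in the 3 in vitro and the 3 in vivo libraries, with the mean as a horizontal line and the SD as a bar beside it. The libraries of both groups overlap for Txnrd1 and are separate for the other 7 genes, and the in vivo levels of Slc11a2, Aco1 and Fth1 lie close together.

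Iron uptake genes differed in opposite directions, and only the lower level of the transporter passed. Slc11a2 (gene identifier 18174, chromosome 15), the metal transporter that moves iron out of endosomes, stood at 631, 494 and 460.3 normalised reads in the in vitro libraries A to C. It stood at 794, 813 and 792 in the in vivo libraries A to C. Every in vitro library lay below every in vivo library, and the in vivo libraries differed by less than any pair of in vitro libraries. Its means were 528.7 ± 90.5 in vitro and 799.6 ± 11.7 in vivo (± is the SD, n = 3). The authors' deposited table gave it a PPEE of 2.21e-07. In limma voom Slc11a2 fell by 0.60 on the log2 scale (SE 0.15, adjusted p = 0.0273), a 1.52-fold lower level. A second whole solution of its in vivo mean, with 131, 32 and 2005 reads, was set aside because its libraries were far out of balance.

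Tfrc (gene identifier 22042), the transferrin receptor, was the least abundant of the 8 genes. Its levels were 41.4, 51.8 and 57.1 normalised reads in the in vitro libraries A to C and 32.3, 35.4 and 26.0 in the in vivo libraries A to C. All in vitro libraries lay above all in vivo libraries, with a 1.17-fold gap between the nearest of them. These levels rest on 45, 50 and 46 reads in vitro and 40, 40 and 23 reads in vivo. The log2 change was 0.64 (SE 0.30, 95% interval 0.01 to 1.28) and did not pass (limma voom, adjusted p = 0.158). The authors' deposited table gave Tfrc a PPEE of 1.

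The genes of both iron regulatory proteins changed in opposite directions in limma voom. Aco1 (gene identifier 11428, chromosome 4) encodes a protein that is a cytosolic aconitase when it holds an iron-sulphur cluster and binds RNA when it lacks it. Its levels were 448, 309.9 and 367 normalised reads in the in vitro libraries A to C, below the 559, 586 and 584 of the in vivo libraries A to C. The means were 375 ± 69.1 in vitro and 576 ± 15.3 in vivo (± is the SD, n = 3). For Aco1 the authors' deposited table lists a PPEE of 1.23e-06. In limma voom Aco1 fell by 0.63 on the log2 scale (SE 0.16, adjusted p = 0.0313).

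Ireb2 (gene identifier 64602, chromosome 9), whose protein is broken down when iron is ample, was higher in vitro in limma voom and not called by the table. It stood at 603, 1253 and 1074 normalised reads in the in vitro libraries A to C and at 527, 531 and 451 in the in vivo libraries A to C. Library A lay 1.13-fold above the highest in vivo library, while libraries B and C lay far above all in vivo libraries. The means were 977 ± 336 in vitro and 503 ± 45.5 in vivo (± is the SD, n = 3). Limma voom gave a log2 change of 0.87 (SE 0.23, adjusted p = 0.0344), and the authors' deposited table a PPEE of 0.482. The in vitro reads of Ireb2 are the least certain of the 8 genes, since a wider tolerance in the recovery left 3 solutions. In these the highest in vitro library was 2.08, 3.30 or 5.83 times the lowest, and only the first, used here, kept the groups from overlapping.

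Set against each other within each library, per kilobase of gene length, the level of Ireb2 was 1.00, 3.01 and 2.18 times that of Aco1 in the in vitro libraries A to C. In the in vivo libraries A to C the ratio was 0.702, 0.674 and 0.574. Every in vitro ratio was above every in vivo ratio with the reads used here. That separation is no further result. It follows from the levels above, where every in vitro library was higher for Ireb2 and lower for Aco1. Of the other solutions for Ireb2, one gave 0.846, 4.03 and 1.505 in vitro, still above all in vivo ratios, and the other 2.48, 0.614 and 2.39, where library B lay among them. A ratio within a library does not depend on how libraries were scaled, and it shows unequal change of the genes only. Of the 3 other ratios formed, that of Sephs2 to Txnrd1 was 0.7502, 1.43 and 1.58 in vitro and 0.219, 0.424 and 0.642 in vivo, without overlap. The ratios of Tfrc to Fth1 and of Selt to Txnrd1 overlapped between the groups.

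Fth1 (gene identifier 14319), the ferritin heavy chain, which oxidises and stores iron, did not pass in either test. Its levels were 577, 815 and 576 normalised reads in the in vitro libraries A to C, against 534, 507 and 527 in the in vivo libraries A to C. In vitro library B was high, and libraries A and C lay at most 1.08-fold above the highest in vivo library. The log2 change was 0.31 (SE 0.16, 95% interval -0.04 to 0.66, limma voom, adjusted p = 0.210). Over the omissions of 1 library it ran from 0.14, without in vitro library B, to 0.40. The authors' deposited table gave a PPEE of 0.786. Ferritin genes have near-identical processed copies in the mouse genome, and how reads shared with them were counted is not given in the sources used here, so the level of Fth1 is uncertain.

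Of the selenium genes, Sephs2 had the largest change of all 8 genes. Sephs2 (gene identifier 20768) makes selenophosphate, the selenium donor for selenocysteine, and is a selenoprotein itself. It stood at 105, 158 and 215 normalised reads in the in vitro libraries A to C and at 40.4, 59.3 and 70.0 in the in vivo libraries A to C. The lowest in vitro library was 1.496 times the highest in vivo library, the widest gap among the 8 genes. The means were 159 ± 55.0 in vitro and 56.6 ± 14.99 in vivo (± is the SD, n = 3), a 2.81-fold ratio. Limma voom gave a log2 change of 1.46 (SE 0.31, adjusted p = 0.0168), and the authors' deposited table a PPEE of 0.00229.

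Selt (gene identifier 69227), selenoprotein T, a thioredoxin-like protein of the endoplasmic reticulum, was higher in vitro in limma voom and not called by the table. Its levels were 253, 492 and 527 normalised reads in the in vitro libraries A to C, and 239, 196 and 201 in the in vivo libraries A to C. In vitro library A lay only 1.06-fold above the highest in vivo library, and libraries B and C lay far above it. The means were 424 ± 149 in vitro and 212 ± 23.8 in vivo (± is the SD, n = 3). The log2 change was 0.91 (SE 0.26, limma voom, adjusted p = 0.0413), and the authors' deposited table gave a PPEE of 0.307.

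Txnrd1 (gene identifier 50493), the cytosolic thioredoxin reductase, whose selenocysteine is the last residue but 1, showed no difference beyond the spread of libraries. It stood at 209.5, 166 and 203 normalised reads in the in vitro libraries A to C and at 277, 209.9 and 164 in the in vivo libraries A to C. The groups overlapped, and the in vivo libraries were more spread than the in vitro libraries. The log2 change was -0.16 (SE 0.22, limma voom, adjusted p = 0.640), with a 95% interval from -0.63 to 0.30. The authors' deposited table lists a PPEE of 0.923 for it.

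**Figure D2:**
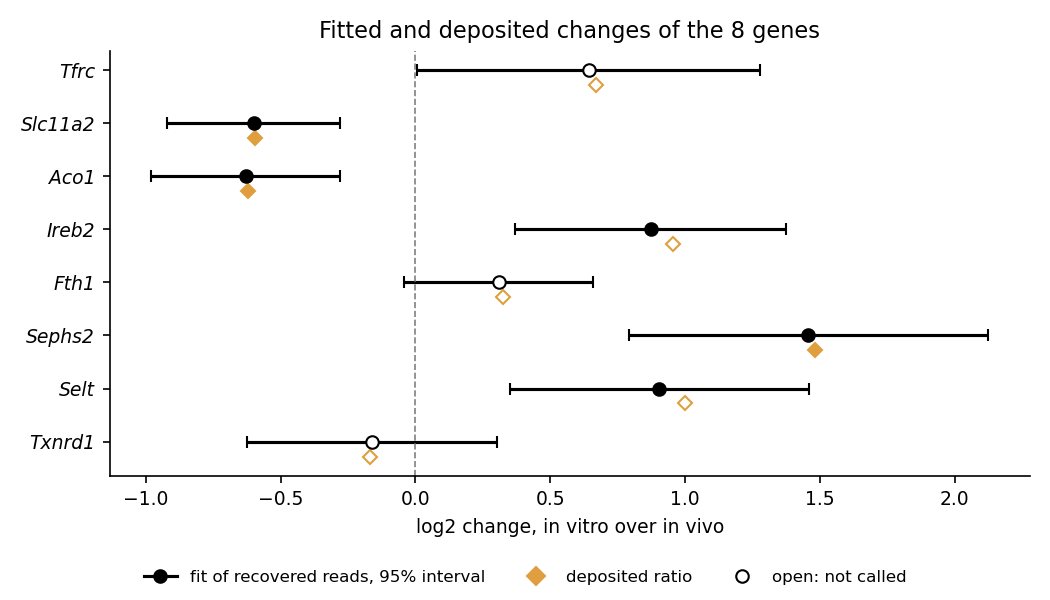
Log2 change in vitro over in vivo of the 8 genes from the fit of recovered reads (circles, with 95% intervals) and as deposited (diamonds), filled where called. Slc11a2 and Aco1 lie left of 0, Sephs2 lies farthest right at 1.46, and Ireb2 and Selt are filled in the fit and open in the deposited table.

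Most calls of limma voom ended when a library was left out, in vitro library A excepted. Without in vitro library A all 5 called genes passed, while leaving out any other library ended the calls of Slc11a2, Aco1, Ireb2 and Selt. The call of Sephs2 ended without in vivo library A, in vivo library B or in vitro library C and held in the other 3 omissions. The direction of the 5 called genes, and of Tfrc and Fth1, was the same in all 6 omissions. It could not have turned, since the in vitro and in vivo libraries of these genes did not overlap. Over the omissions the adjusted p of limma voom ran from 0.00106 to 0.127 for Slc11a2, from 0.00176 to 0.122 for Aco1 and from 4.26e-05 to 0.125 for Ireb2. It ran from 8.30e-05 to 0.148 for Selt and from 0.000252 to 0.0943 for Sephs2. The log2 change stayed between -0.74 and -0.51 for Slc11a2 and between -0.77 and -0.49 for Aco1. It stayed between 0.64 and 1.20 for Ireb2, between 0.72 and 1.26 for Selt and between 1.22 and 1.75 for Sephs2.

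The coefficient of variation was larger in vitro for 7 of the 8 genes, all but Txnrd1. For Slc11a2 it was 17.1% in vitro and 1.47% in vivo, for Aco1 18.4% and 2.66%, and for Fth1 21.0% and 2.61%. With 3 libraries such low in vivo values are uncertain, and that of Slc11a2 rests on the solution kept for its balanced libraries. Ireb2 had 34.4% in vitro and 9.04% in vivo, and Selt 35.2% and 11.2%. The gap was smaller for Sephs2, at 34.6% in vitro and 26.5% in vivo, and close to nil for Tfrc, at 16.0% and 15.4%. Txnrd1 went the other way, with 12.3% in vitro and 26.2% in vivo. Tfrc held 23 to 50 reads per library and Sephs2 50 to 67 in vivo, so counting alone adds much spread to both. The share of counting in the spread of the 8 genes was not tested. Among the 6 of these genes with means of at least 100 in both groups, 5 (83.3%) had the larger value in vitro. Over 4165 genes with recovered reads and means of at least 100 in both groups, the median coefficient was 15.7% in vitro and 10.4% in vivo, and 68.7% of genes had the larger value in vitro.

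In levels per kilobase of gene length the genes were ordered differently in each group. Fth1 led in both, with 696 ± 146 normalised reads per kilobase in vitro and 555 ± 14.5 in vivo (± is the SD, n = 3). Tfrc came last in both, at 10.2 ± 1.63 in vitro and 6.35 ± 0.980 in vivo (± is the SD, n = 3). In vivo the order after Fth1 was Slc11a2 at 233, Aco1 at 133, Ireb2 at 86.6, Txnrd1 at 65.5, Selt at 59.3 and Sephs2 at 25.7 normalised reads per kilobase. In vitro it was Ireb2 at 168, Slc11a2 at 154, Selt at 119, Aco1 at 86.8, Sephs2 at 72.1 and Txnrd1 at 58.3. In vitro the libraries of every neighbouring pair from Ireb2 to Txnrd1 overlapped. In vivo only those of Ireb2 with Txnrd1 and of Txnrd1 with Selt did. Overlap here was judged over all libraries of a group, not gene against gene within each library.

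These 8 genes and those around them were described with 8 lists, of which 93 genes were measured, the 8 included. By the authors' deposited table, calls were 6 higher and 5 lower in vitro, where 6.75% and 8.31% of all genes were. Their median log2 change was 0.17 against 0.02 over all genes. Limma voom called 6 higher and 3 lower among the 75 with recovered reads, where 6.01% and 5.51% of all genes with recovered reads were called. Without the 8 genes themselves, the table called 5 higher and 3 lower of 85, and limma voom 3 higher and 1 lower of 67.

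**Figure D3:**
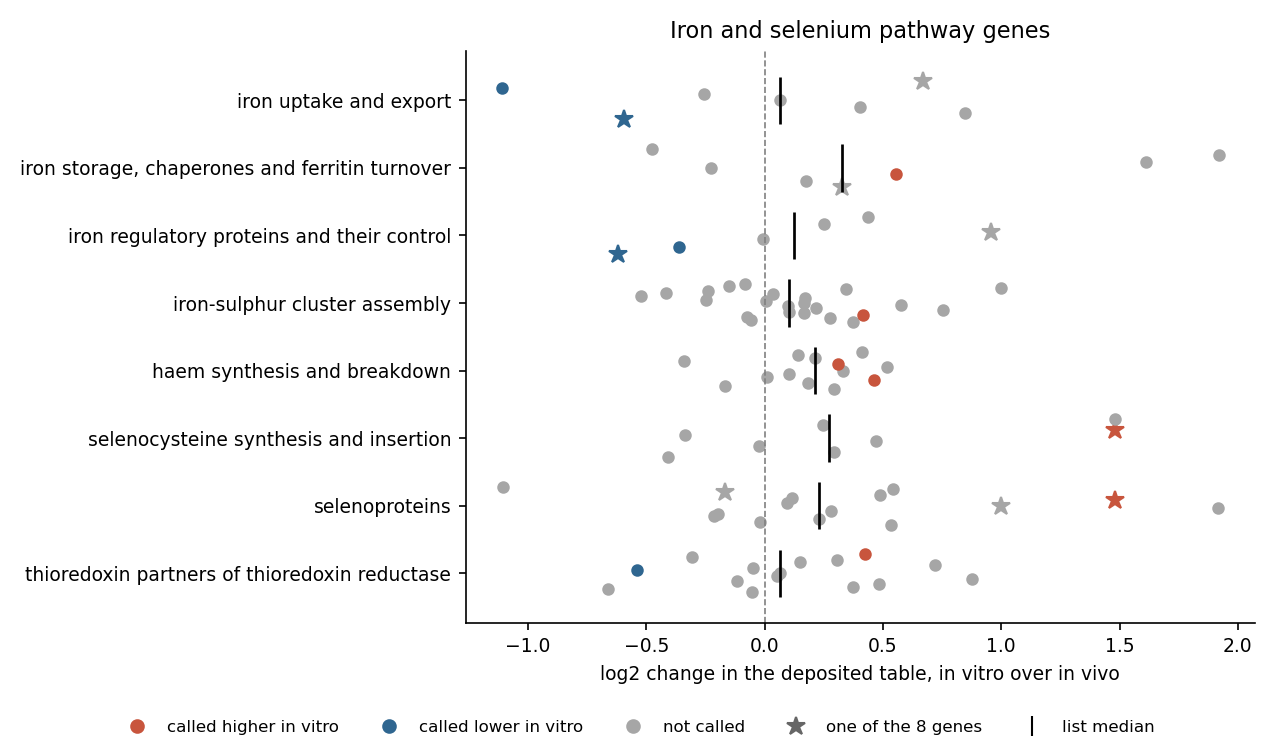
Log2 change in vitro over in vivo in the deposited table for each measured gene of the 8 lists (points, stars for the 8 genes, colour by call at a PPEE below 0.05), with the median of each list as a black bar. Each list holds at most 2 called genes in a direction, and all list medians lie between 0 and 0.33.

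Of 7 measured genes of iron uptake and export, 2 were called lower and 0 higher by the table, and the median log2 change was 0.07. Besides Slc11a2 this was Steap4, of a family of metalloreductases that reduce iron before transport, for which the authors' deposited table gave a 2.17-fold lower mean in vitro. Steap4 had 181, 113 and 138 reads in the in vitro libraries A to C and 352, 377 and 324 in the in vivo libraries A to C. Every in vitro library was below every in vivo library (log2 change -1.12, SE 0.20, limma voom, adjusted p = 0.00973). Its call ended without in vivo library A or B, with an adjusted p of at most 0.0524 in limma voom.

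Of 7 genes of iron storage and iron chaperones, 1 was called higher by the table and 0 lower, with a median log2 change of 0.33. The called gene was Glrx3, a glutaredoxin that carries iron-sulphur clusters, for which the authors' deposited table gave a 1.47-fold higher mean and a PPEE of 6.95e-06, and whose reads could not be recovered. Limma voom called Pcbp1 and Pcbp2, which deliver iron to ferritin and also bind RNA, both named after their values were seen. Pcbp1 had 243, 646 and 315 reads in the in vitro libraries A to C and 186, 152 and 118 in the in vivo libraries A to C (log2 change 1.46, SE 0.33, limma voom, adjusted p = 0.0206). Pcbp2 had 334, 1115 and 493 reads in vitro and 261, 188 and 150 in vivo, in the same order of libraries (log2 change 1.70, SE 0.39, limma voom, adjusted p = 0.0206). In vitro library B was the highest for both. Both calls ended without in vivo library A, in vivo library B or in vitro library C, where the adjusted p of limma voom reached 0.0870 for Pcbp1 and 0.0893 for Pcbp2. The authors' deposited table gave a PPEE of 0.344 for Pcbp1 and of 0.545 for Pcbp2. Ftl1, the ferritin light chain, stood at 256 mean normalised reads in vitro and 227 in vivo (PPEE 0.903) by the authors' deposited table.

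Of 6 genes of iron regulatory proteins and their control, 2 were called lower by the table, Aco1 and Cul1, and 0 higher, with a median log2 change of 0.12. Cul1, the scaffold of the ubiquitin ligase that acts on the Ireb2 protein, had a 1.29-fold lower mean in vitro and a PPEE of 9.10e-05 according to the authors' deposited table. Fbxl5, the iron-sensing subunit of that ligase, stood at 1632 mean normalised reads in vitro and 1642 in vivo (PPEE 0.984) by the authors' deposited table. Of 23 genes of iron-sulphur cluster assembly, 1 was called higher and 0 lower, with a median log2 change of 0.10. The called gene was Ciapin1, of the cytosolic assembly machinery, for which the authors' deposited table gave a 1.33-fold higher mean and lists a PPEE of 0. Limma voom and limma trend each called 0 of the 17 genes of that list with recovered reads, and 3 had an unadjusted p below 0.05 in limma voom.

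Of 13 genes of haem synthesis and breakdown, 2 were called higher by the table and 0 lower, with a median log2 change of 0.21. Alas1, the rate-limiting enzyme of haem synthesis in most tissues, had a 1.38-fold higher mean in vitro according to the authors' deposited table (PPEE 3.41e-06). For Hmox2, a haem oxygenase, the authors' deposited table gave 1.24-fold (PPEE 0.0417). Limma voom called neither (adjusted p = 0.0623 for Alas1 and 0.167 for Hmox2). Of the 12 haem genes with recovered reads, 2 had an unadjusted p below 0.05 in limma voom, and limma trend called 0. Since such unadjusted p-values were common over all genes, the 2 are a description only.

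Of 8 genes of selenocysteine synthesis and insertion, Sephs2 was called higher by the table and 0 lower, with a median log2 change of 0.27. Limma voom also called Trnau1ap, which binds the tRNA of selenocysteine and was named after its values were seen. Trnau1ap had 44, 46 and 41 reads in the in vitro libraries A to C and 13, 15 and 22 in the in vivo libraries A to C. Its groups did not overlap (log2 change 1.63, SE 0.38, limma voom, adjusted p = 0.0215), and the authors' deposited table gave it a PPEE of 1.00. Leaving out in vivo library A, in vivo library B or in vitro library C ended this call, with an adjusted p of up to 0.105 in limma voom. Secisbp2, which binds the element that recodes TGA, stood at 269 mean normalised reads in vitro and 273 in vivo (PPEE 0.957) by the authors' deposited table.

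Of 15 measured selenoprotein genes, 1 was called higher by the table, Sephs2, and 0 lower, and limma voom called Sephs2 and Selt of 14 with recovered reads. The median log2 change of the 15 genes was 0.23. Gpx4, which reduces lipid peroxides, had 103, 173 and 65 reads in the in vitro libraries A to C and 227, 159 and 73 in the in vivo libraries A to C. It showed no difference beyond the spread of libraries (log2 change -0.24, SE 0.33, limma voom, adjusted p = 0.652). Of 15 thioredoxins, peroxiredoxins and other partners of thioredoxin reductase, 1 was called higher and 1 lower by the table. Txnl1, a thioredoxin-like protein of the proteasome, had a 1.34-fold higher mean in vitro according to the authors' deposited table (PPEE 0.0177). For Rrm1, the large subunit of ribonucleotide reductase, the authors' deposited table gave a 1.45-fold lower mean (PPEE 0.000316). Limma voom called 0 of the 11 with recovered reads, with an adjusted p of 0.0884 for Txnl1 and 0.0542 for Rrm1. An unadjusted p below 0.05 was found for 3 of these 11 genes in limma voom, and limma trend called 0. Since such unadjusted p-values were common over all genes, the 3 are a description only.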

How the data were processed

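RNA of 6 oocyte samples was sequenced, and the authors deposited 1 table of group means. Per the submitters' processing notes, BWA and build mm9 were used. The annotation, the scale factors and the source of the PPEE are not given in the sources used here. The authors' deposited signal is a mean of normalised reads per gene and group. The deposited log2 values, in vivo relative to in vitro, were recomputed from both means with 0.599 added to each. The sign is turned in the text to in vitro over in vivo.

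Each group mean adds up whole reads, 3 libraries weighted by 1 step each. Steps were found from repeated differences among low means, and means below 1000 were solved to the 10 digits given. From a mean of 200 on, where chance solutions are common, each library had to lie within 3 times of the mean. Of means above 0 and below 1000, 94.1% in vitro and 93.6% in vivo had a single accepted solution. Shifted values, which should have none, were solved in 5.00% and 7.63% of cases, and between 500 and 1000 in 26.3% and 41.1%. Slc11a2 in vivo had 2 solutions, of which 1 had balanced libraries. Recovered reads were fitted with limma 3.58.1 (voom, 2-sided, library sizes from the size factors) in R 4.3.3 over 9041 genes. Genes with a mean of 1000 or more in either group (1367) were not fitted. Recovery and fit were tested on simulated data with known answers.

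The members and lists were chosen with earlier results of these data known. Named are the 8 genes and, per list, at most 4 genes called by the table with the largest change. Pcbp1, Pcbp2, Trnau1ap, Ftl1, Fbxl5, Secisbp2 and Gpx4 were added after their values were seen. Spreadsheet software had turned 16 symbols into dates, which were restored from gene identifiers (10875 found in RefSeq, GRCm38).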

Additional observations from a re-analysis of the deposited data

How the results depend on the processing

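No paired analysis was possible because the columns are group means and the recovered libraries carry no replicate numbers, so no replicate block could be fitted. Among the 8 genes, the counts called by the table were the same at a PPEE below 0.01, with a 1.5-fold minimum, with a mean of at least 10, and after centring on the median of all genes. The minimum mean and the centring could not change these counts. The called genes had means far above 10 and changes far larger than that median, which was 0.0155 on the log2 scale. The 1.5-fold minimum was passed only narrowly by Slc11a2, at 1.51-fold lower in vitro, and by Aco1, at 1.54-fold lower. Among the 93 pathway genes the 1.5-fold minimum left 1 called higher and 3 called lower. Leaving out 1 recovered library at a time, limma voom called between 0 and 3 of the 8 genes higher and between 0 and 2 lower. Such omissions moved the calls over all genes from 1041 to between 26 (without in vivo library A) and 2533 (without in vitro library A). They left 58 without in vitro library C, 61 without in vivo library B, 341 without in vitro library B and 641 without in vivo library C. The log2 change of Txnrd1 ran from -0.33 to 0.040 over the omissions and was above 0 only without in vivo library A. Limma trend, TMM factors and a minimum of 10 reads, which removed no gene, kept all 5 calls, as did keeping unbalanced solutions, an alternative chosen after seeing the data. The wider tolerance, also chosen after seeing the data, left Ireb2 unsolved and 2 genes called higher. Tfrc rests on 23 to 50 reads per library, so depth limits what its comparison can show.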

Other observations

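The table lists a PPEE of exactly 1 for 1627 genes (14.9%), Tfrc among them. Of the 1516 with recovered reads, limma voom called 62 (4.09%) at an adjusted p below 0.05.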
